A study of Homo sapiens with 2 samples.

Results

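To describe which cytokine and growth factor receptors were transcribed in acute lymphoblastic leukemia of B-cell precursors (BCP-ALL), 9 receptor genes were followed in RNA sequencing data from the lines REH and 697. The genes were IL7R, IL2RG, IL2RA, CSF2RB, FLT3, KIT, CSF1R, IGF1R and INSR. They were taken as a list of symbols, matched to their Ensembl gene IDs, and make up 9 of the 57773 genes counted. In REH the genes ETV6 and RUNX1 are fused and the other ETV6 allele is deleted, whereas 697 served as the fusion-negative line. Both lines are labelled B-ALL and were grown in RPMI with fetal bovine serum, no drug or other agent is named for them, and each was sequenced as 1 library. No replicate spread is therefore known, no test between the lines could be run, and each difference below is between these libraries.

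The receptors fall into groups by structure. The cytokine receptors have no kinase of their own and signal through Janus kinases bound to their chains. IL7R and the common gamma chain IL2RG together form the receptor for interleukin 7, a growth factor of B-cell precursors, while IL2RA gives the interleukin 2 receptor its high affinity. CSF2RB is the beta chain shared by the receptors for interleukin 3, interleukin 5 and GM-CSF. FLT3, KIT and CSF1R are class III receptor tyrosine kinases of blood progenitors and macrophages, and IGF1R and INSR are the closely related receptors for insulin-like growth factors and insulin.

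In both libraries 6 of the 9 receptors were abundant and 3 were scarce, and the lines differed most in KIT. The genes called abundant, by their read counts, were IL7R, IL2RG, FLT3, INSR, CSF2RB and IGF1R, each with at least 1428 reads in each library. They differed by a log2 ratio (REH over 697) of under 1 in size. KIT had 617 reads in REH and 12 in 697, CSF1R had 30 and 61, and IL2RA had 4 and 1. Summed over the 9 genes, the level was 1180 CPM in REH and 1318 CPM in 697, where CPM is reads per 1000000 reads in genes after scaling.

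A gene was called higher in a line when its log2 ratio reached 2 in size, provided that 1 of the libraries held 10 reads or more of it. Of the receptors, 8 passed this read minimum and IL2RA did not. By this rule 1 of the 8 was higher in REH (KIT) and none was higher in 697. Over all 19145 genes tested, 12.5% passed on the side of REH and 8.15% on the side of 697, and over the 13489 protein-coding genes the shares were 10.9% and 7.17%. The count among the receptors is thus near the background. Their median log2 ratio was 0.19, against 0.05 over all genes tested.

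**Figure D1:**
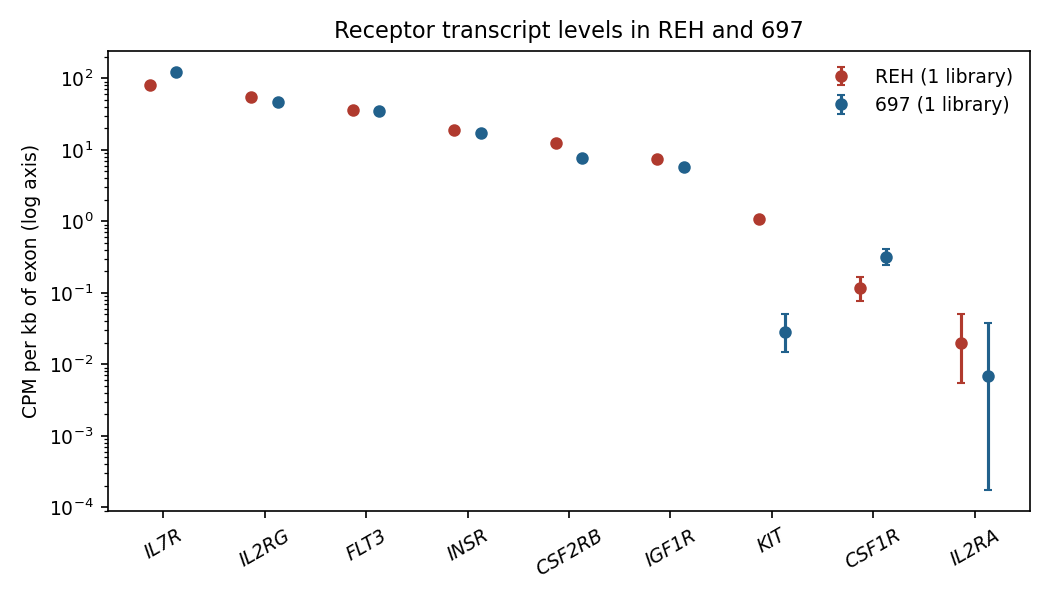
Level of each receptor gene in REH (red) and 697 (blue), as CPM per kb of exon on a log axis, with 1 library per line. Bars are exact 95% Poisson intervals of the read count, smaller than the points for the abundant genes, and the KIT points, at 1.08 and 0.0287, lie farthest apart.

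The order of the levels per kb of exon was then compared within each library. In REH it ran from IL7R (82.1 CPM per kb) over IL2RG (54.9), FLT3 (36.5), INSR (19.0), CSF2RB (12.3), IGF1R (7.47), KIT (1.08) and CSF1R (0.116) to IL2RA (0.0201). In 697 the first 6 kept this order, at 122.7, 46.0, 34.6, 17.5, 7.75 and 5.67 CPM per kb. CSF1R followed at 0.321, above KIT at 0.0287 and IL2RA at 0.00683. The counting intervals of neighbours in this order did not overlap, except those of KIT and IL2RA in 697, which cannot be ordered at this depth. IL7R lay above 98.2% of the protein-coding genes read 10 times or more in REH, and above the same share in 697. KIT lay above 22.7% of them in REH and above 0.237% in 697. Not all genes called abundant ranked high per kb. CSF2RB lay above 72.7% of the protein-coding genes in REH and 56.2% in 697, and IGF1R above 58.1% and 47.6%.

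As regulatory context for these levels, the 250 bases before the annotated start were read from RefSeq (GRCh38.p14) for the 8 receptor genes with an entry there. The gene at the largest difference, the most abundant gene and a gene at nearly equal level are shown. Capitals mark the core motif of RUNX factors, searched as TGTGGT and TGCGGT on both strands.
KIT, chr4:54657707-54657956, plus strand: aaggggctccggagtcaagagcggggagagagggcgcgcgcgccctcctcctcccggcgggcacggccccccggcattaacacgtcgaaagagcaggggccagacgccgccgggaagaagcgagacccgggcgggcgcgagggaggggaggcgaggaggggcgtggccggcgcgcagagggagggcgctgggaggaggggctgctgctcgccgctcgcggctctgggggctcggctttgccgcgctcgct
IL7R, chr5:35856641-35856890, plus strand: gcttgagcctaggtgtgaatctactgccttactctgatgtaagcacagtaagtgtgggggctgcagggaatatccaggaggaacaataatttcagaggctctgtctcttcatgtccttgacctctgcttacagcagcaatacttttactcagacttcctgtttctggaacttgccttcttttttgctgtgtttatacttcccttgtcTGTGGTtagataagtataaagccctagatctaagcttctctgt
FLT3, chr13:28100577-28100826, minus strand: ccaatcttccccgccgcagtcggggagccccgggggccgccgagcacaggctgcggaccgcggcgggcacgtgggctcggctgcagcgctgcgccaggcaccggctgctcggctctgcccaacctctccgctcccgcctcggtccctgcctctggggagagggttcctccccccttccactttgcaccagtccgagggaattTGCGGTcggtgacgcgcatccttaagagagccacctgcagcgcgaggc

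This motif was found in 4 of the 9 promoter entries of these 8 genes, and in 16.3% of the 35116 promoters of the same table. It lay 43 bases before the RefSeq start of IL7R, 48 bases before that of FLT3 and 81 bases before that of IL2RA, and 71 bases before 1 of the 2 RefSeq starts of CSF1R. No match was present in this window for KIT, IL2RG, IGF1R and INSR. The promoters also differed in composition. IGF1R, KIT, INSR and FLT3 held 48, 34, 28 and 26 CpG pairs, whereas IL2RG and IL2RA held 3 each and IL7R held 0, against a median of 11 over all promoters. Receptors with and without the motif were found among the abundant and among the scarce genes. CSF2RB was not part of this search.

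The interleukin 7 receptor chains were examined first, since this receptor drives the growth of normal B-cell precursors. IL7R (chromosome 5, 35852695 to 35879603, GRCh38) had 24832 reads or 494 CPM in REH and 27282 reads or 738 CPM in 697. It was lower in REH, by a log2 ratio of -0.58 (95% counting interval -0.60 to -0.56), a level in 697 that was 1.47-fold to 1.52-fold higher. The common gamma chain IL2RG (chromosome X, 71107404 to 71112108) went the other way, with 7546 reads or 150.1 CPM in REH and 4652 reads or 126 CPM in 697. In GENCODE 44 it shares 1403 exon bases with a gene on the same strand (ENSG00000285171) that the files do not list. Its log2 ratio was 0.25 (0.20 to 0.31). Both differences exceeded counting error and stayed far below the threshold. In bulk RNA, fewer cells with a transcript and less of it per cell cannot be told apart.

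The balance of IL7R and IL2RG does not depend on the scaling of the libraries. IL7R stood 1.495 times as high as IL2RG per kb of exon in REH and 2.66 times as high in 697. The ratio was thus 1.78-fold higher in 697 (exact conditional interval 1.71 to 1.86, counting error only). IL2RA (chromosome 10, 6010689 to 6062370), the alpha chain of the interleukin 2 receptor and a marker of activated lymphocytes, had 4 reads in REH and 1 in 697. Its interval ran from -1.78 to 7.18, so a difference was not detectable at this depth. IL2RB, the beta chain that completes this receptor, had 17 and 12 reads.

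The other chains listed with IL2RG and IL7R, of which IL13RA1 pairs with neither, were scarce to moderate. Of the 7 genes listed, 6 were tested, with 1 higher in REH (IL13RA1), 1 higher in 697 (IL9R) and a median log2 ratio of 0.30. Neither call was kept with a minimum of 50 reads. IL4R, the interleukin 4 receptor chain, reached 10.9 CPM in REH and 7.42 CPM in 697. IL15RA reached 5.53 and 8.26 CPM, and IL21R 18.1 and 7.47 CPM. For IL21R the strand-separated columns held 1.86 times as many reads in REH and 2 times as many in 697. CRLF2, which joins IL7R in the TSLP receptor and is overexpressed in a subtype of BCP-ALL, had 3 and 4 reads. The genes past the threshold had few reads, namely IL13RA1 with 27 reads in REH against 1 in 697 (log2 ratio 3.75, interval 1.71 to 9.67) and IL9R with 4 and 28 (-3.11, interval -5.22 to -1.74). CRLF2 and IL9R lie in regions shared by the X and Y chromosomes, as do IL3RA and CSF2RA, and reads placed on both copies would not be counted. SLC25A6, an abundant gene of the shared region that holds CRLF2, IL3RA and CSF2RA, had 13960 reads in REH and 48517 in 697. Reads from that region were thus counted in both libraries. IL9R lies in the other shared region, at the far end of chromosome X (155997696 to 156010817), for which SLC25A6 is no check. As the SLC25A6 counts themselves differ, they do not show that counts from these regions can be compared between the lines.

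CSF2RB (chromosome 22, 36913628 to 36940439) had 3082 reads or 61.3 CPM in REH and 1428 reads or 38.7 CPM in 697. Its log2 ratio of 0.67 (0.57 to 0.76) was the largest of the 6 abundant receptors. Its alpha chains differed from each other in direction. IL3RA, the interleukin 3 receptor alpha chain or CD123, had 188 reads in REH against 301 in 697 (log2 ratio -1.12, interval -1.39 to -0.86). Per kb of exon CSF2RB stood 5.62 times as high as IL3RA in REH and 1.63 times in 697, a 3.46-fold difference of the ratio (2.84 to 4.21). CSF2RA, the GM-CSF receptor alpha chain, had 18 reads in REH against 1 in 697 (log2 ratio 3.18, interval 1.06 to 9.11), and its call was lost with 5 reads added, with a minimum of 50 reads and in either strand column. IL5RA, the interleukin 5 receptor alpha chain, had 1 and 0. Per kb of exon CSF2RA stood at 0.0875 CPM in REH and 0.00661 CPM in 697, far below CSF2RB in both.

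**Figure D2:**
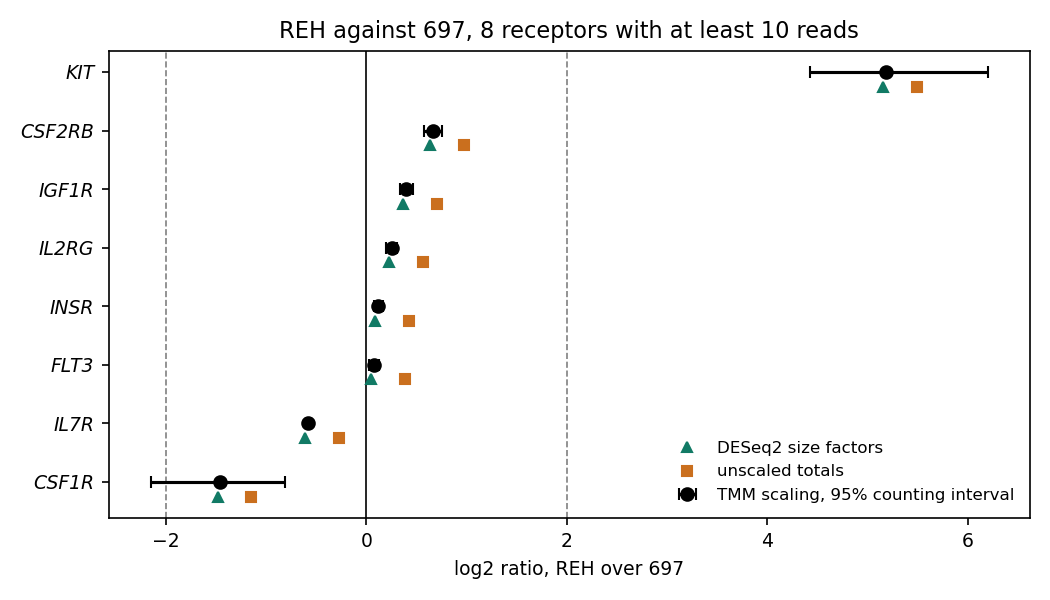
Log2 ratio of REH over 697 for the 8 receptors tested, with exact 95% counting intervals (black, TMM scaling) and the values with DESeq2 size factors (green) and with unscaled totals (orange). Dashed lines mark a ratio of 2 in size, which KIT passes at 5.18, whereas the abundant receptors lie between -0.58 and 0.67.

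Among the class III kinases, FLT3 was nearly equal and KIT was not. FLT3 (chromosome 13, 28003274 to 28100592), a kinase of early lymphoid and myeloid progenitors, had 7636 reads or 152 CPM in REH and 5321 reads or 144 CPM in 697. Its log2 ratio was 0.08 (0.03 to 0.13), and 93.9% of all genes tested had a ratio at least this far from 0. KIT (chromosome 4, 54657267 to 54740783), the receptor for stem cell factor, had 617 reads or 12.3 CPM in REH and 12 reads or 0.325 CPM in 697. The log2 ratio was 5.18 (4.43 to 6.20), a 36.3-fold higher level in REH (21.5 to 73.5). Of all genes tested, 7.22% had a ratio this far from 0. Even so, KIT stayed a minor kinase in REH, where FLT3 stood 33.7 times as high per kb of exon. In 697 FLT3 stood 1208 times as high, so the ratio of FLT3 to KIT was 35.8-fold higher there (20.3 to 69.8). With the longest transcript as length, an alternative chosen after seeing the data, FLT3 stood 17.7 times as high as KIT in REH and 635.5 times in 697, and the difference between the lines stays the same.

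CSF1R (chromosome 5, 150053291 to 150113372), the macrophage colony-stimulating factor receptor, was scarce in both lines. It had 30 reads or 0.597 CPM in REH and 61 reads or 1.65 CPM in 697. The log2 ratio was -1.46 with an interval of -2.15 to -0.81, so the counting error reaches across the threshold. The related PDGF receptors differed from each other, since PDGFRB had 1197 reads in REH against 2005 in 697 (log2 ratio -1.19, interval -1.29 to -1.08) and PDGFRA had 0 in both, which allows up to 0.0597 CPM in REH and 0.0812 CPM in 697.

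Because KIT is also made by myeloid progenitors, the cell type of the libraries was checked against marker genes. Of the 10 B-precursor markers, all but VPREB1 were found in both libraries, among them PAX5 (792 CPM in REH, 1224 CPM in 697) and DNTT (1142 and 4433 CPM). VPREB1 had 3 reads in REH, under the read minimum of 10, and 10039 in 697. The 7 T-cell markers summed to 1.03 CPM in REH and 0.298 CPM in 697, with CD3D, CD4 and CD2 at 0 in both. Both T-cell markers tested passed the threshold, in opposite directions, CD3E with 45 reads in REH and 0 in 697 and CD8A with 0 and 10. The 7 myeloid markers summed to 263 CPM in REH and 7.04 CPM in 697, and 3 of the 5 tested were higher in REH. The sum in REH came almost wholly from the granule enzyme gene MPO, with 12643 reads in REH and 12 in 697, and from the integrin gene ITGAM, with 403 and 0. The sum in 697 came mostly from CST3, which went the other way, with 131 reads in REH and 237 in 697 (-1.30). CD33 had 22 and 1 reads (log2 ratio 3.46, interval 1.39 to 9.38), so its counting error reaches across the threshold. ELANE had 0 reads in both, LYZ had 1 and 2, and CD14 had 29 and 8. MPO, ITGAM and CD33 were called higher in REH, as were KIT and 12.5% of all genes tested, and CST3 was not. Each gene has 1 ratio here, so shared variation with KIT cannot be measured. The part of these genes in the KIT difference was not tested.

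The receptors of the insulin family differed little between the lines. INSR (chromosome 19, 7112255 to 7294414) had 10338 reads or 206 CPM in REH and 7000 reads or 189.5 CPM in 697, with a log2 ratio of 0.12 (0.07 to 0.16). IGF1R (chromosome 15, 98648539 to 98964530) had 5235 reads or 104 CPM in REH and 2921 reads or 79.1 CPM in 697, with a log2 ratio of 0.40 (0.33 to 0.46). Of all genes tested, 90.5% had a ratio at least as far from 0 as INSR and 69.6% as IGF1R. INSR was the higher of the pair in each line. Per kb of exon, IGF1R stood at 0.393 of the INSR level in REH and at 0.324 in 697, and this ratio was 1.21-fold higher in REH (1.15 to 1.28). INSRR, the orphan kinase of the family, had 131 reads in REH and 0 in 697, at least 32.1-fold higher in REH when 697 is set at 3 reads and the REH count is taken as it stands. The exact counting interval of this ratio began at 25.7-fold. The counts behind this value do not separate strands. IGF2R, which clears IGF2 and has no kinase, had 18182 reads in REH against 9078 in 697 (log2 ratio 0.56).

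**Figure D3:**
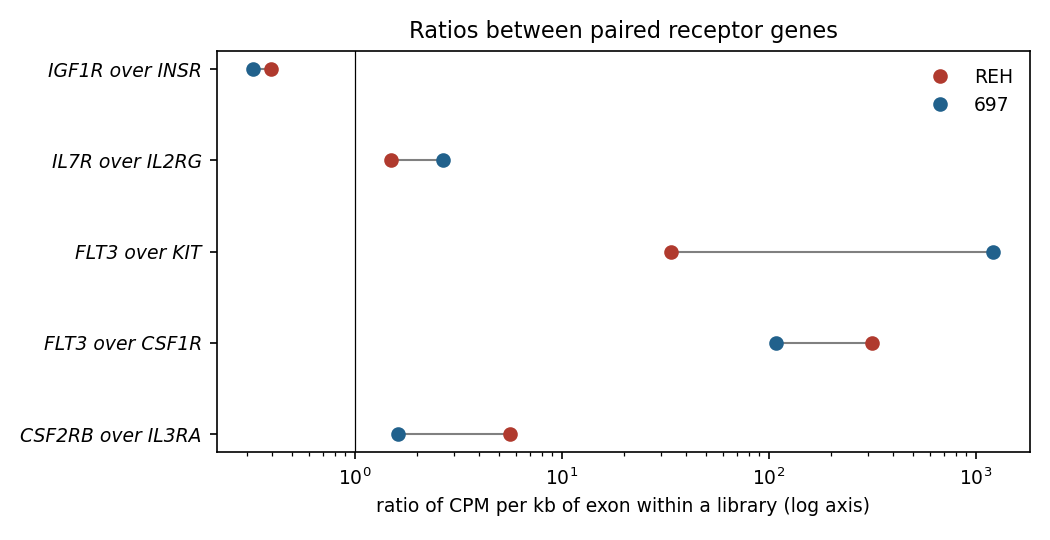
Ratio of CPM per kb of exon between pairs of receptor genes within REH (red) and within 697 (blue), on a log axis, with 1 library per line. FLT3 over KIT differs most between the lines, at 33.7 in REH and 1208 in 697 (17.7 and 635.5 with the longest transcript as length), and IGF1R over INSR least, at 0.393 and 0.324.

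The ratios of the abundant receptors were small enough to move with the scaling of the libraries. With unscaled totals the median of all genes tested moved by 0.31, and the log2 ratios became -0.27 for IL7R, 0.38 for FLT3, 0.43 for INSR, 0.56 for IL2RG, 0.70 for IGF1R and 0.97 for CSF2RB. All 6 kept their sign, and relative to the median of all genes they did not change. The ratios between paired receptors given above are free of this choice. For the 8 receptors tested, 44.3% to 56.7% of the strand-assigned reads lay on the strand of the gene, and the strand columns added up to the pooled counts within 0.0265%.

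Next, it was asked whether the ligands of these receptors were transcribed by the same cells. Of 17 ligand genes, 11 had 0 reads in both libraries, including IL7, TSLP, IL2, IL3, CSF2, KITLG, IGF1, IGF2 and INS. Each such 0 allows up to 0.0597 CPM in REH and 0.0812 CPM in 697. KIT was thus read in REH without reads of its ligand gene KITLG, and IL7R in both lines without reads of IL7. CSF1, the ligand of CSF1R, had 99 reads in REH against 61 in 697 (log2 ratio 0.25, interval -0.22 to 0.74). IL15, whose receptor contains IL2RG, had 53 reads in REH against 1 in 697 (log2 ratio 4.71, interval 2.74 to 10.61). FLT3LG, the ligand of FLT3, had 15 and 2 (log2 ratio 2.19, interval 0.36 to 5.64). Of the 17 ligands, 14 were not tested. Of the 3 tested, 2 were higher in REH and none in 697, beside 12.5% and 8.15% of all genes tested. Those 2, IL15 and FLT3LG, reached the read minimum only in REH. The count and the median log2 ratio of 2.19 thus follow in part from the read minimum and are no result about the ligands. The count fell to 1 with 5 reads added, with a minimum of 50 reads and in either strand column.

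Among the wider family of cytokine receptors, differences in both directions were found. Of 19 other type I and type II cytokine receptor genes, 17 were tested, with 4 higher in REH, 3 higher in 697 and a median log2 ratio of 0.49. Thus 41.2% passed on either side, while 12.5% of all genes tested passed on the side of REH and 8.15% on that of 697. With a minimum of 50 reads, 2 were higher in REH and 2 in 697, and the numbers tested at that minimum are not given here. EPOR, the erythropoietin receptor, had 1365 reads in REH against 31 in 697 (log2 ratio 4.99, interval 4.50 to 5.58). CSF3R, the receptor for G-CSF, had 920 and 32 (4.38, interval 3.89 to 4.96). On the 697 side IL12RB2, a chain of the interleukin 12 receptor, had 22 reads in REH and 8911 in 697 (-9.07, interval -9.78 to -8.51). LEPR, the leptin receptor, had 34 and 486 (-4.26, interval -4.83 to -3.78). The other 3 past the threshold, PRLR, IL6R and LIFR, had at most 30 reads in a library. Each reached the read minimum only in the library where it was higher. The chains of the interferon receptors stayed within the threshold, with log2 ratios of 0.50 for IFNAR1, -0.23 for IFNAR2 (above 0 with unscaled totals, and with 1.67 and 1.60 times as many strand-assigned reads), 1.23 for IFNGR1 and 0.92 for IFNGR2.

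**Figure D4:**
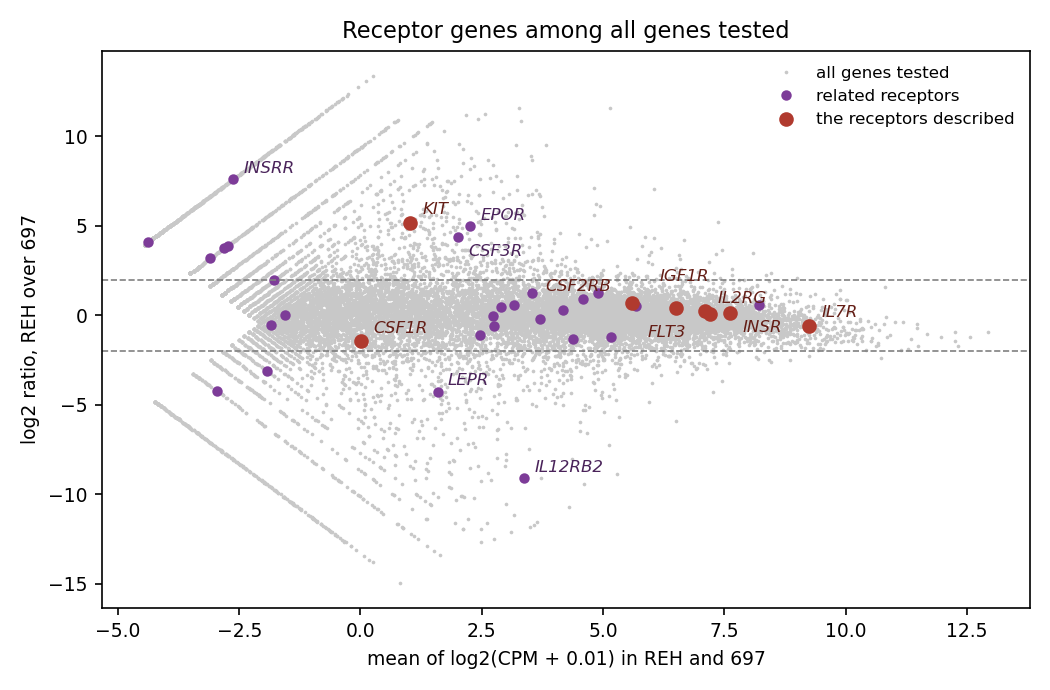
Log2 ratio of REH over 697 against the mean of log2(CPM + 0.01) of the libraries for all 19145 genes tested (grey), related receptors (purple) and the receptors described (red). KIT, EPOR and CSF3R lie above the dashed line at 2, LEPR and IL12RB2 lie below that at -2, and the abundant receptors lie near 0 on the right.

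Genes that act directly on these receptors were taken last. The 4 Janus kinases were within the threshold, with a median log2 ratio of 0.13. JAK1, which binds IL7R, reached 122 CPM in REH against 298 CPM in 697 (log2 ratio -1.29, interval -1.33 to -1.24). JAK3, which binds IL2RG, reached 75.1 and 30.2 CPM (1.31, interval 1.22 to 1.41). JAK2, used by CSF2RB, was at 20.7 and 20.4 CPM.

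Of 12 docking and adaptor genes of the insulin and IGF receptors, 10 were tested, with 1 higher in REH, none higher in 697 and a median log2 ratio of 0.40. The call was PIK3R2, with 14 and 2 reads (log2 ratio 2.09, interval 0.24 to 5.54), and it was lost with 5 reads added, with a minimum of 50 reads and in either strand column. Among the abundant adaptors, the insulin receptor substrate IRS2 had 5609 reads in REH against 1495 in 697 (log2 ratio 1.46, interval 1.38 to 1.55) and the docking protein GAB2 had 13492 and 4169 (1.25, interval 1.20 to 1.30). IRS1 was nearer to even at 0.17. Of the 10 tested, 7 were above 0 and 3 below, or 2 below with unscaled totals. Those below were GAB1 with 9140 reads in REH and 10438 in 697 (-0.64), GRB10 with 6424 and 6579 (-0.48) and SHC1 (-0.16). Of the IGF binding proteins, which hold IGFs outside the cell, 3 of the 4 tested were below 0, with a median of -1.33. The other, IGFBP6, had 34 reads in REH and 7 in 697 (1.76, interval 0.64 to 3.25), and it passed the threshold with unscaled totals. IGFBP7 passed the threshold, with 731 reads in REH and 4076 in 697 (-2.92, interval -3.04 to -2.81), with 1.64 times as many strand-assigned reads in REH, while IGFBP4 reached -1.64 and IGFBP2 -1.03.

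Of the 8 genes that attenuate receptor signals or remove phosphate from it, none passed the threshold, and 7 were below 0 with a median of -0.39, or 5 with a median of -0.08 with unscaled totals. PTPN2, a phosphatase of Janus kinases, reached 37.8 CPM in REH and 89.1 CPM in 697 (-1.24, interval -1.32 to -1.15). CBL, a ubiquitin ligase of FLT3 and KIT, was even at 155 and 158 CPM. Over all 81 related genes, 57 were tested, with 10 higher in REH, 5 higher in 697 and a median log2 ratio of 0.22. Together 26.3% of the 57 passed, beside 12.5% of all genes tested on the side of REH and 8.15% on that of 697.

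**Figure D5:**
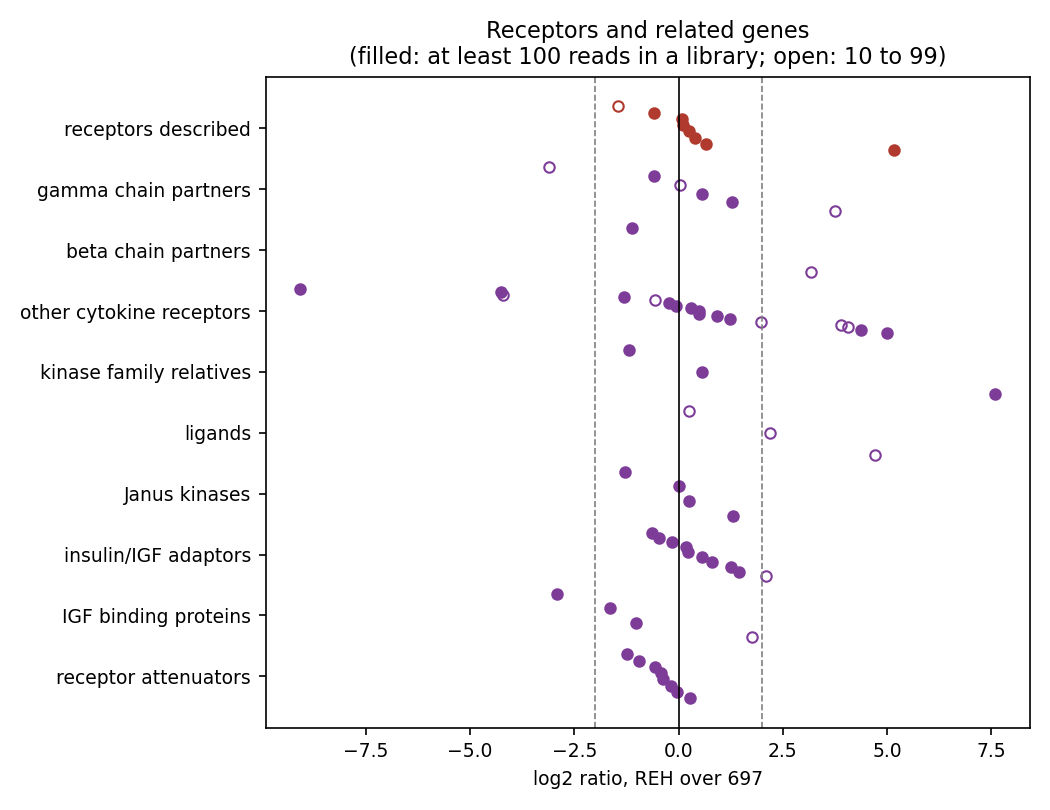
Log2 ratio of REH over 697 of the receptors described (red) and of each list of related genes (purple), for the genes tested. Filled points have 100 or more reads in a library and open points 10 to 99, and most genes past the dashed lines at 2 in size outside the other cytokine receptors are open.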

How the data were processed

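Raw counts of reads per gene were deposited by the authors for the 2 libraries, neither normalized nor pooled. Per the study's methods the authors aligned TruSeq libraries to hg38 with STAR, whereas the submitters' processing notes name hg19, and the annotation used for counting is not given in the sources used here. The labels describe stranded, ribodepleted RNA, the methods poly-A purification. Each file has 3 count columns, and the reads of either strand were used, because strand-assigned reads split evenly (50.1% and 50.2% on the strand of the gene). The REH library held 63954817 reads, of which 45188375 fell in genes, and the 697 library held 58948890 and 41097497.

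Symbols, positions and summed exon lengths came from GENCODE 44 (GRCh38), which matched 51996 of 57773 gene IDs. Its positions may differ from those the authors used. Totals were scaled by TMM in edgeR 4.0.16 (R 4.3.3), with factors of 1.11 for REH and 0.899 for 697. Ratios were taken after adding 0.5 reads. Intervals are exact at 95% (Clopper-Pearson for ratios, Poisson for levels, conditional for ratios of ratios) and cover counting error only, as PCR copies are not separate molecules. A count of 0 was given an upper limit of 3 reads. No model was fitted and no p-value is given. The computation was run on simulated Poisson counts from a shared profile, with as many genes raised as lowered. This checks the arithmetic only, since the simulation holds no spread beyond counting error and no imbalance between the lines.

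The receptors, the lists of related genes and the markers were chosen with earlier results of these data known. All 9 receptors are named. Of the lists, partners (IL13RA1 was listed among them) and ligands are named at any value and other genes past the threshold with at least 100 reads. JAK1, JAK3, JAK2, IRS1, IRS2, GAB2, IGFBP2, IGFBP4, PTPN2, CBL, IGF2R, PDGFRA, PDGFRB, the interferon receptor genes, PIK3R2, PRLR, IL6R, LIFR and SLC25A6 were named after their values were seen. So were GAB1, GRB10, SHC1 and IGFBP6. Alternatives were unscaled totals, size factors from DESeq2 1.42.0, TMM over protein-coding genes, read minimums of 1 and 50, 5 reads added, a threshold of 1, either strand column and the longest transcript as length.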

Additional observations from a re-analysis of the deposited data

Results flagged for a closer look

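The comparisons used reads pooled over strands, in which a read that overlaps genes on both strands is left out. In the separate strand columns, 4 related genes with at least 100 strand-assigned reads in a library had at least 1.5 times as many reads there as in the pooled column. The median gene was at 1, and 11.9% of the genes with that many reads in REH and 11.1% in 697 reached this multiple. IL21R had 1.86 times as many in REH (1689 against 909 reads) and 2 times in 697 (553 against 276), and its log2 ratio was 1.20 and 1.17 in the strand columns against 1.27. OSMR had 10.9 times as many in REH (120 against 11 reads), and 97 against 12 reads in 697. Its log2 ratio of -0.56 became -0.24 and 0.04. IFNAR2 had 1.67 times as many in REH and 1.60 times in 697, with log2 ratios of -0.13 and -0.16 against -0.23. IGFBP7 had 1.64 times as many in REH, with -2.45 and -2.75 against -2.92. None of the 9 receptors showed such an excess. The origin of these reads was not tested.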

How the results depend on the processing

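The ratios of the 8 receptors tested kept their sign under the alternatives run. KIT ranged from 4.75 with 5 reads added to 5.49 with unscaled totals, and CSF1R from -1.78 to -1.08, within the threshold of 2 throughout. With unscaled totals the log2 ratios left their counting intervals for IL7R (-0.27), IL2RG (0.56), FLT3 (0.38), CSF2RB (0.97), IGF1R (0.70) and INSR (0.43). With DESeq2 size factors IL7R moved to -0.61, and in the reads on the opposite strand (column 4 of the files) FLT3 moved to 0.15. The order of the receptors per kb stayed the same in either strand column and with the longest transcript. With that length, FLT3 over KIT moved to 17.7 in REH and 635.5 in 697, which was tried after seeing the data, and the other 4 pairs stayed within their counting intervals. The ratios between pairs stayed within their counting intervals in either strand column, except that IL2RA over IL2RG gave no finite value on the strand of the gene.

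The number of receptors higher in 697 was 1 at a threshold of 1. Over all genes, 1477 were higher in REH and 1036 in 697 with a minimum of 50 reads, 4293 and 3336 at a threshold of 1, and 3592 and 4410 with a minimum of 1 read, where more genes lay on the side of 697 than of REH, the reverse of the 2396 and 1560 with a minimum of 10. Of the related genes, 4 were higher in REH and 3 in 697 with a minimum of 50 reads, 17 and 12 at a threshold of 1, 5 were higher in REH with 5 reads added, and 6 in the reads on the opposite strand. Fewer genes are tested at a higher minimum, and more pass a lower threshold. For genes with few reads the depth sets the limit: 3 reads were 0.0597 CPM in REH and 0.0812 CPM in 697.

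No paired analysis was possible because both lines have a single library, so leaving out a library leaves no comparison.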
